A study of Arabidopsis thaliana with 6 samples.

Results

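WRKY transcription factors were followed in Arabidopsis thaliana callus, as 45 genes picked by locus code out of 31305 loci in one table of transcript abundance. Messenger RNA had been sequenced in bulk from callus that grew on cut hypocotyls, the embryonic stems of 1-week-old seedlings, during 7 days on a callus-inducing medium. The series has 3 libraries labelled rap2.12-2 and 3 libraries of the wild type Col-0, described as biological replicates. All 6 share the tissue, the medium and the time, and the labels give no further allele, treatment or transgene for either genotype. The labels name 1 allele, do not say what it does to RAP2.12, and do not say whether explants were pooled. RAP2.12 is a group VII ethylene response factor, an activator of low-oxygen genes that is broken down when oxygen is present. Abundance is in TPM, a unit that corrects for transcript length and for the library total but keeps no read depth, so the precision of each value was judged from the spread between libraries.

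WRKY factors are a large plant family of DNA-binding proteins named after a conserved run of amino acids in their zinc-finger domain. Most bind the W-box, a short element common in promoters of defence genes and of WRKY genes themselves, so that members regulate each other. Many are induced by pathogens, by the defence hormone salicylic acid or by wounding, and others act in senescence, nutrient supply and development. The 45 genes were sorted by published roles into 12 linked to salicylic acid, 15 linked to defence in other ways and 18 others. The sorting was done with earlier results of these data known, so contrasts between roles are a description only. Roles also overlap, as for WRKY75, placed under other defence although it acts in salicylic acid production too.

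RAP2.12 (AT1G53910), whose transcript is the check on the genotype labels, was higher under the mutant's label than in the wild type. It measured 360, 363 and 465 TPM in libraries labelled rap2.12-2, against 123, 140 and 161 TPM in Col-0. It rose by 1.48 on the log2(TPM + 1) scale, which is used for every log2 fold change here (SE 0.17, limma adjusted p = 0.026). A two-sided exact permutation test gave p = 0.1, which is as low as 3 libraries against 3 can reach. Directions are therefore given by label, as rap2.12-2 over Col-0, with no statement on RAP2.12 function.

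A pair of libraries lay at the ends of the WRKY values. The first principal component of all genes held 44.3% of the variance and placed the library labelled rap2.12-2 replicate 1 at -69.2 and Col-0 replicate 2 at 44.8, with the others between -4.63 and 12.7. Col-0 replicate 1 differed in another way, with listed values that summed to 845341 TPM, where the other 5 libraries held 984523 to 992724 TPM. Organelle loci held 12005 TPM in Col-0 replicate 1, against 157 to 537 TPM in the other 5 libraries. The main fit did not rescale the values for this. Callus regulators were present in every library: 7 of 8 markers averaged 1 TPM or more, with LBD29, a lateral organ boundary factor, below it. The summed level of the 8 was 261, 381 and 376 TPM in libraries labelled rap2.12-2, against 402, 433 and 452 TPM in Col-0. WOX11 made up 73.4, 103 and 130 TPM of that sum in libraries labelled rap2.12-2, against 193, 171 and 196 TPM in Col-0. Its log2 fold change was -0.90, while those of the other compared callus markers ran from -0.19 to 0.11. None of the 4 stomatal lineage markers reached a mean of 1 TPM.

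The signature that names the family is coded by 21 bases, and these are shown for 6 salicylic-linked members because a codon in it sets WRKY50 and WRKY51 apart from the other members. They were read from the coding exons of the RefSeq annotation on the TAIR10.1 assembly, 5′ to 3′ on the coding strand, with the codon of the sixth residue of the signature in capitals.
WRKY51 (chr5:25908864-25908884, plus strand): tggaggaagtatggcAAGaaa
WRKY50 (chr5:9147579-9147599, minus strand): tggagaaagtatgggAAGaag
WRKY70 (chr3:20909760-20909780, minus strand): tggaggaaatatggaCAAaag
WRKY54 (chr2:17001378-17001398, minus strand): tggaggaaatatggaCAAaag
WRKY38 (chr5:7496202-7496222, minus strand): tggaggaaatatggtCAAaag
WRKY46 (chr2:19044313-19044333, minus strand): tggagaaaatatgggCAAaaa
The codon was one for lysine in WRKY51 and WRKY50 and one for glutamine in the other 43 members. WRKY70 and WRKY54 had the same 21 bases. All 9 members of group III, the subfamily of WRKY70, WRKY54, WRKY38 and WRKY46, had a zinc finger that ends in cysteine, while no member of another group had. The 9 members of group I carried the signature at 2 places.

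Most WRKY genes were transcribed in this callus. An average of 1 TPM or more across all 6 libraries was reached by 36 of the 45, and the other 9 could not be compared at that level. The 9 comprised WRKY8, WRKY29, WRKY30, WRKY41 and WRKY55 among the genes with other defence roles, and WRKY31, WRKY42, WRKY44 and WRKY61 among the others. Their means over all libraries ran from 0.0667 TPM for WRKY41 to 0.393 TPM for WRKY8. All 12 salicylic-linked members passed the filter, as did 10 of the 15 with other defence roles and 14 of the 18 others. No member passed it through 1 group alone: every one of the 36 averaged 1 TPM or more in both genotypes.

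WRKY23 (AT2G47260), an auxin-induced factor of root development, had the highest level of the family. It measured 199, 235 and 304 TPM in libraries labelled rap2.12-2, against 256, 223 and 255 TPM in Col-0. The groups overlapped, with a log2 fold change of -0.01 (SE 0.18, limma adjusted p = 0.992). WRKY15 (AT2G23320), linked to growth under oxidative stress, came next in level with 57.6, 119 and 108 TPM in libraries labelled rap2.12-2, against 90.9, 178 and 104 TPM in Col-0. WRKY18 and WRKY70, described with the salicylic-linked genes, followed, and then WRKY57 and WRKY39. The mean of WRKY15 over all libraries, 110 TPM, and that of WRKY18, 99.4 TPM, differed by less than the spread of either between libraries.

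No WRKY gene passed the test between genotypes. Of the 36 compared, 0 had a limma adjusted p under 0.05, where 13 of 18629 kept genes did, a share of 0.0698%. The adjusted p of the members ran from 0.416 to 0.992. With unadjusted p values below 0.05, 5 members (13.9%) were lower in libraries labelled rap2.12-2, where 3.62% of all genes were, and 0 were higher, where 3.22% of all genes were. Complete separation of the groups, with every library labelled rap2.12-2 below every Col-0 library, was seen in 4 members (11.1%), where 6.03% of all genes show it. Separation the other way was seen in 0 members, where 6.62% of all genes show it. The log2 fold change was negative in 30 of 36 members, or 83.3%, against 53.3% of all genes, with a median of -0.32 against -0.02.

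The members with small p values or separate groups were salicylic-linked. All 5 members at an unadjusted p under 0.05 (WRKY50, WRKY51, WRKY70, WRKY54 and WRKY60) and all 4 with separate groups (WRKY50, WRKY51, WRKY70 and WRKY60) belong to the 12 with that role. Negative log2 fold changes were found in all roles, in 10 of 12 salicylic-linked members, 8 of 10 with other defence roles and 12 of 14 others. The median log2 fold change was -1.13 over the 12 salicylic-linked members, -0.13 over the 10 with other defence roles and -0.24 over the 14 others. Pooling both kinds of defence role gave a median of -0.53 over 22 members. The difference between these medians was not tested, and the roles were assigned with earlier results of these data known. In bulk RNA, fewer cells of a type and less RNA per cell cannot be told apart, and this holds for every value given here.

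**Figure D1:**
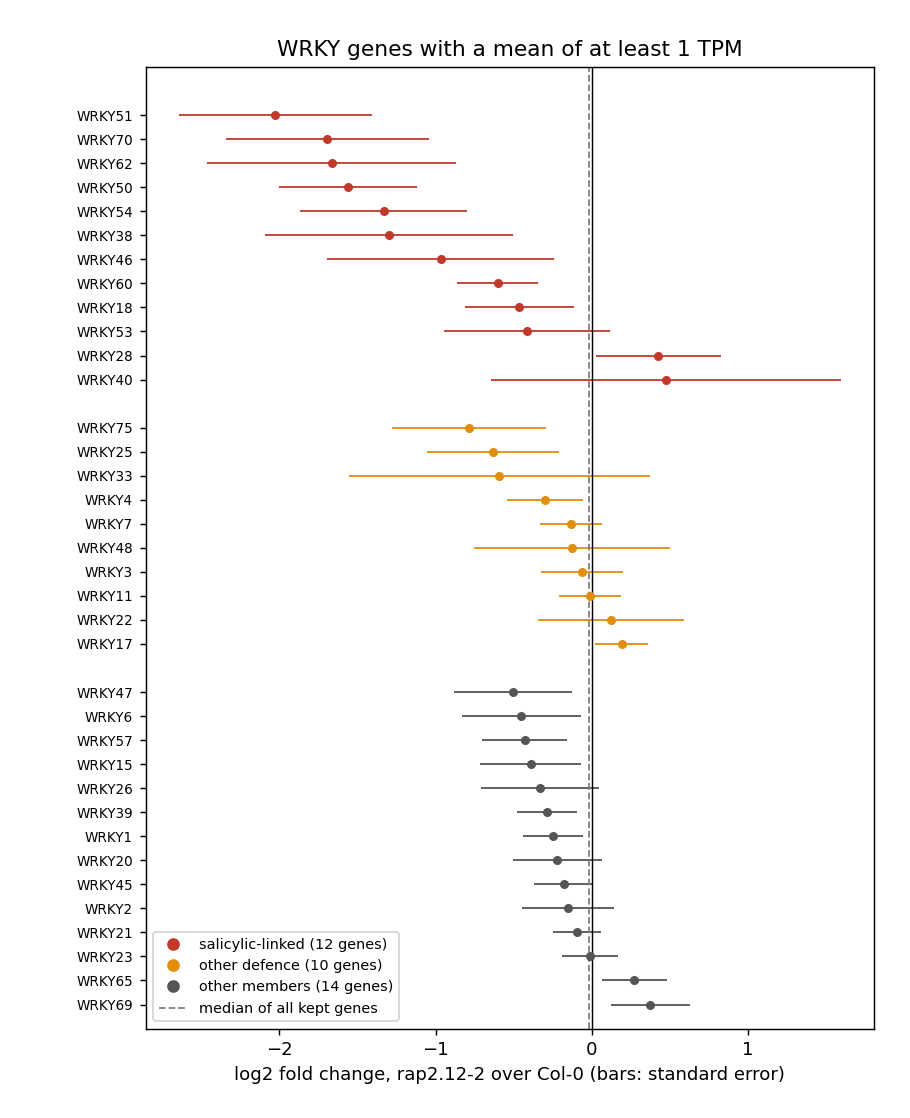
Log2 fold change on the log2(TPM + 1) scale, rap2.12-2 over Col-0, of the 36 WRKY genes that averaged 1 TPM or more, by role; points are limma estimates, bars are 1 standard error, and the dashed line is the median of all kept genes at -0.02. The salicylic-linked genes run from -2.02 (WRKY51) to 0.47 (WRKY40) and hold the members furthest below 0, while the other genes lie between -0.79 (WRKY75) and 0.37 (WRKY69).

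WRKY51 and WRKY50, closely related group IIc factors that carry salicylic acid signals which repress jasmonate responses, had the smallest unadjusted p of the 36 compared members. WRKY51 (AT5G64810) measured 5.88, 23.6 and 43.4 TPM in libraries labelled rap2.12-2, against 58.1, 139 and 60.2 TPM in Col-0. Its groups did not overlap, and all 3 libraries labelled rap2.12-2 lay below the lowest Col-0 library. Its means were 24.3 ± 18.8 TPM in libraries labelled rap2.12-2 and 85.7 ± 46.0 TPM in Col-0 (SD, n = 3 each), with a log2 fold change of -2.02 (SE 0.62, limma unadjusted p = 0.0101, adjusted p = 0.472). WRKY50 (AT5G26170) measured 0.86, 1.70 and 4.61 TPM in libraries labelled rap2.12-2, against 6.57, 13.4 and 5.67 TPM in Col-0. These groups did not overlap either, and every library was lower in WRKY50 than in WRKY51. The log2 fold change of WRKY50 was -1.56 (SE 0.44, limma unadjusted p = 0.00678, adjusted p = 0.416).

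WRKY70 (AT3G56400), which activates salicylic acid response genes and represses jasmonate ones, and WRKY54 (AT2G40750), its close relative that acts with it, both had the library labelled rap2.12-2 replicate 1 at the low end and Col-0 replicate 2 at the high end. WRKY70 measured 10.4, 47.7 and 68.4 TPM in libraries labelled rap2.12-2, against 79.2, 217 and 73.9 TPM in Col-0. The groups did not overlap, but the gap between them was that of 68.4 TPM in libraries labelled rap2.12-2 and 73.9 TPM in Col-0. The means were 42.2 ± 29.4 TPM in libraries labelled rap2.12-2 and 123 ± 81.1 TPM in Col-0 (SD, n = 3 each), with a log2 fold change of -1.69 (SE 0.65, limma unadjusted p = 0.0292, adjusted p = 0.623). WRKY54 measured 1.13, 3.54 and 6.60 TPM in libraries labelled rap2.12-2, against 8.45, 19.3 and 5.13 TPM in Col-0. Here the groups overlapped, with a log2 fold change of -1.33 (SE 0.53, limma unadjusted p = 0.0346, adjusted p = 0.661).

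WRKY38 (AT5G22570) and WRKY62 (AT5G01900), which are induced through the salicylic acid receptor NPR1 and restrain basal defence, had groups that overlapped. WRKY38 measured 3.88, 17.7 and 24.2 TPM in libraries labelled rap2.12-2, against 19.6, 108 and 14.2 TPM in Col-0. The high value is that of Col-0 replicate 2, and the other Col-0 libraries fell within the range of the libraries labelled rap2.12-2. WRKY38 had a log2 fold change of -1.30 (SE 0.79, limma adjusted p = 0.844). WRKY62 measured 1.56, 11.2 and 17.97 TPM in libraries labelled rap2.12-2, against 16.4, 73.8 and 13.5 TPM in Col-0, with a log2 fold change of -1.66 (SE 0.80, limma adjusted p = 0.781).

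WRKY46 (AT2G46400), a group III factor that adds to basal resistance with WRKY70 and WRKY53, measured 7.54, 52.9 and 41.7 TPM in libraries labelled rap2.12-2, against 32.1, 127 and 33.8 TPM in Col-0. Its groups overlapped, with a log2 fold change of -0.97 (SE 0.73, limma adjusted p = 0.857). WRKY53 (AT4G23810), a regulator of leaf senescence, was near the filter with means of 1.08 TPM in libraries labelled rap2.12-2 and 2.25 TPM in Col-0, and a log2 fold change of -0.41. The senescence markers SAG12 and SAG13 were listed at 0 in all 6 libraries. The senescence regulator ORE1 (AT5G39610) measured 8.73, 6.62 and 10.97 TPM in libraries labelled rap2.12-2, against 12.2, 19.4 and 9.70 TPM in Col-0. Its groups overlapped, with a log2 fold change of -0.57 (limma adjusted p = 0.793).

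The group IIa factors WRKY18, WRKY40 and WRKY60, which form complexes with each other and tune responses to pathogens, did not share a pattern. WRKY60 (AT2G25000) measured 5.35, 7.32 and 4.73 TPM in libraries labelled rap2.12-2, against 7.61, 12.9 and 7.85 TPM in Col-0. Its groups were separate by a small margin, with a log2 fold change of -0.60 (SE 0.26, limma unadjusted p = 0.0464, adjusted p = 0.715). WRKY18 (AT4G31800), the most abundant of the salicylic-linked genes, measured 51.3, 102 and 92.6 TPM in libraries labelled rap2.12-2, against 92.8, 180 and 77.6 TPM in Col-0, and the groups overlapped. WRKY40 (AT1G80840), given here because of its pattern across libraries and so chosen after its values were seen, measured 4.26, 51.4 and 25.4 TPM in libraries labelled rap2.12-2, against 4.63, 84.3 and 4.68 TPM in Col-0. Its log2 fold change was 0.47 with a standard error of 1.12. WRKY28 (AT4G18170), a regulator of the salicylic acid synthesis gene ICS1, measured 1.81, 2.64 and 1.67 TPM in libraries labelled rap2.12-2, against 0.58, 3.11 and 0.74 TPM in Col-0.

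**Figure D2:**
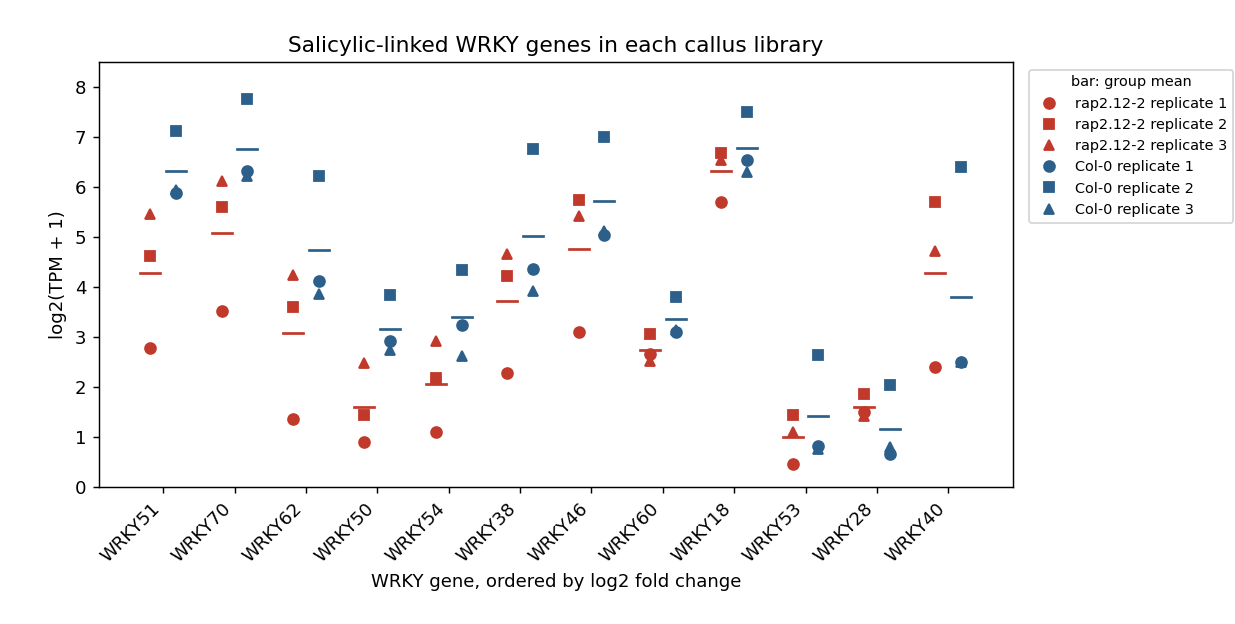
Level of the 12 salicylic-linked WRKY genes in each library as log2(TPM + 1), with the libraries labelled rap2.12-2 in red at the left of each gene and Col-0 in blue at the right; bars are group means over 3 libraries and marker shapes are replicate numbers. Col-0 replicate 2 is the highest library for all 12 genes, and the library labelled rap2.12-2 replicate 1 is the lowest for 10 of them.

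The same libraries were high or low in most of the family. Col-0 replicate 2 was the highest library for 25 of the 36 members and for all 12 salicylic-linked ones, against 26.6% of all genes. The library labelled rap2.12-2 replicate 1 was the lowest for 27 of the 36 members, against 41.8% of all genes. Summed over the 12 salicylic-linked genes, the level was 94.4, 324 and 332 TPM in libraries labelled rap2.12-2, against 327, 982 and 298 TPM in Col-0. By this sum replicates 2 and 3 labelled rap2.12-2 lay close to Col-0 replicates 1 and 3, and the other 2 libraries stood below and above them.

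The values without the 2 end libraries therefore stand beside the main ones. The median of the salicylic-linked genes was -0.42 when Col-0 replicate 2 was left out, and -0.57 when the library labelled rap2.12-2 replicate 1 was. Without both it was 0.07 on the log2 scale, against -1.13 with all 6 libraries, and 6 of the 12 genes were negative. WRKY51 and WRKY50 were the most negative members in that fit, with log2 fold changes of -0.86 and -0.87, and each had an unadjusted p under 0.05 in every one of the 6 fits that left out 1 library. WRKY70 had a log2 fold change of -0.41 without both, WRKY54 of -0.37 and WRKY60 of -0.34. WRKY46 stood at 0.50 and WRKY38 at 0.29 without both, and thus had the opposite sign.

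**Figure D3:**
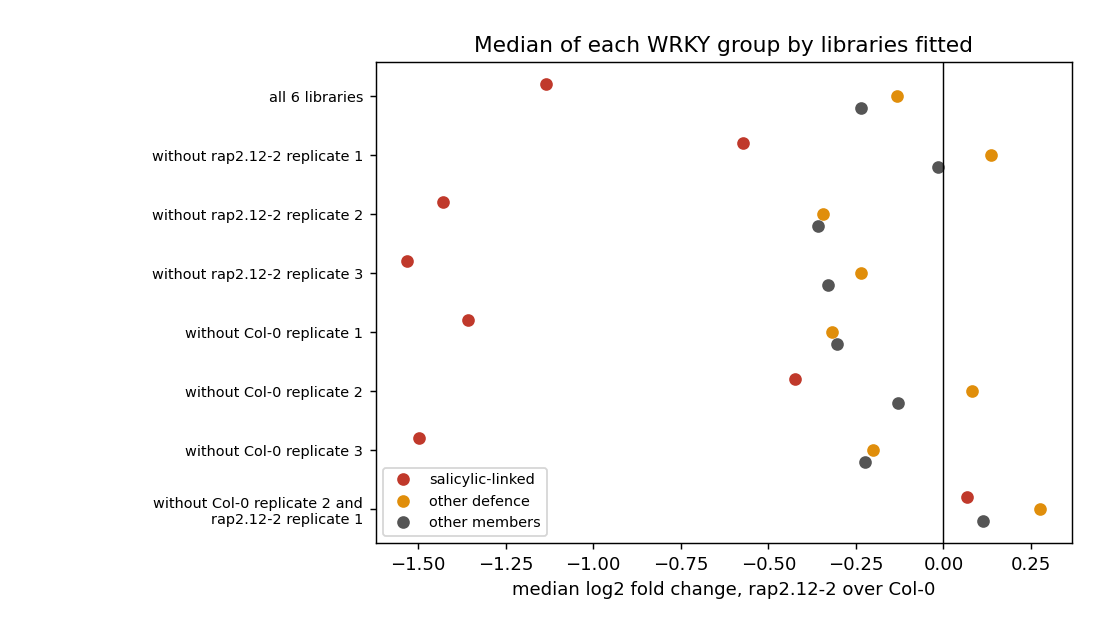
Median log2 fold change, rap2.12-2 over Col-0, of the salicylic-linked, other defence and other WRKY genes in the fit of all 6 libraries, in each fit that left out 1 library, and in the fit without the 2 libraries at the ends of the first principal component. The salicylic-linked median stays below the other medians in the fit of all 6 and in all 6 fits without 1 library, between -1.53 and -0.42, and lies at 0.07 in the fit without both end libraries.

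That last fit called 6 members at a limma adjusted p under 0.05, where 6.19% of 18547 genes were called, with 2 libraries in each genotype and the variance taken wholly from the trend over all genes. WRKY51 and WRKY50 were called lower. WRKY40, with a log2 fold change of 2.72, and WRKY33, WRKY48 and WRKY22, with 1.33, 1.04 and 0.98, were called higher. These 4 had not approached the threshold with all 6 libraries, where their adjusted p values ran from 0.913 to 0.973.

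A second pattern across libraries is described through WRKY40, WRKY33, WRKY48 and WRKY22, of which all but WRKY33 were chosen after their values were seen. They are the members called higher in the fit without both end libraries. That fit set replicates 2 and 3 labelled rap2.12-2 against Col-0 replicates 1 and 3, so their order among those libraries is no separate result. WRKY33 (AT2G38470), the activator of camalexin synthesis and of resistance to Botrytis, measured 4.85, 83.1 and 45.3 TPM in libraries labelled rap2.12-2, against 22.4, 126 and 25.3 TPM in Col-0. WRKY48 (AT5G49520), a stress-induced factor that holds basal resistance down, measured 5.89, 23.6 and 13.6 TPM in libraries labelled rap2.12-2, against 5.96, 37.2 and 11.2 TPM in Col-0. WRKY22 (AT4G01250), which acts downstream of a kinase cascade triggered by flagellin, measured 1.79, 5.07 and 6.35 TPM in libraries labelled rap2.12-2, against 2.57, 7.42 and 2.22 TPM in Col-0. In WRKY40, WRKY33, WRKY48 and WRKY22 the 3 high libraries were replicates 2 and 3 labelled rap2.12-2 and Col-0 replicate 2. The pattern was not particular to these genes. The same 3 libraries were the highest for WRKY46, WRKY53, WRKY15, WRKY11, WRKY3 and WRKY20, some by a small margin. Of these, WRKY46 and WRKY53 are salicylic-linked. On the first principal component of all genes these 3 libraries also had the highest scores. They were 44.8 for Col-0 replicate 2, and 12.7 and 10.8 for replicates 2 and 3 labelled rap2.12-2. The share of all genes with this order of libraries is not given, so the order is no result about the members.

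Genes of rapid responses to touch, cold and wounding divided the libraries in the same way. ZAT10 (AT1G27730), a zinc-finger repressor induced within minutes by many stresses, measured 2.52, 60.6 and 51.3 TPM in libraries labelled rap2.12-2, against 5.12, 72.6 and 4.77 TPM in Col-0. CBF2 (AT4G25470), a cold-induced activator, measured 0.48, 27.2 and 19.6 TPM in libraries labelled rap2.12-2, against 0.74, 28.5 and 0.00 TPM in Col-0. TCH2 (AT5G37770), a touch-induced calmodulin-like gene, measured 70.5, 256 and 179 TPM in libraries labelled rap2.12-2, against 54.8, 291 and 62.9 TPM in Col-0. The 3 genes were high in the same 3 libraries as WRKY40, and low in the same 3. The part of such a response in the WRKY values was not tested.

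WRKY70 and WRKY51 did not divide the libraries in this way. Among the 3 libraries high in ZAT10, WRKY70 measured 47.7 and 68.4 TPM in those labelled rap2.12-2, against 217 TPM in Col-0. Among the 3 low in ZAT10, WRKY70 measured 10.4 TPM in the one labelled rap2.12-2, against 79.2 and 73.9 TPM in Col-0. WRKY51 measured 23.6 and 43.4 TPM, against 139 TPM in Col-0, among the libraries high in ZAT10, and 5.88 TPM, against 58.1 and 60.2 TPM in Col-0, among those low in it. These values are a description of 6 libraries, with groups of 1 or 2, and were not tested. The library alone in its group was Col-0 replicate 2 or rap2.12-2 replicate 1, the 2 end libraries. Genotype and end library therefore cannot be told apart in these values. TCH3 (AT2G41100), another touch-induced calmodulin-like gene, had the order of WRKY70: 56.2, 175 and 284 TPM in libraries labelled rap2.12-2, against 343, 780 and 343 TPM in Col-0, with a log2 fold change of -1.67 (SE 0.55, limma adjusted p = 0.516).

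**Figure D4:**
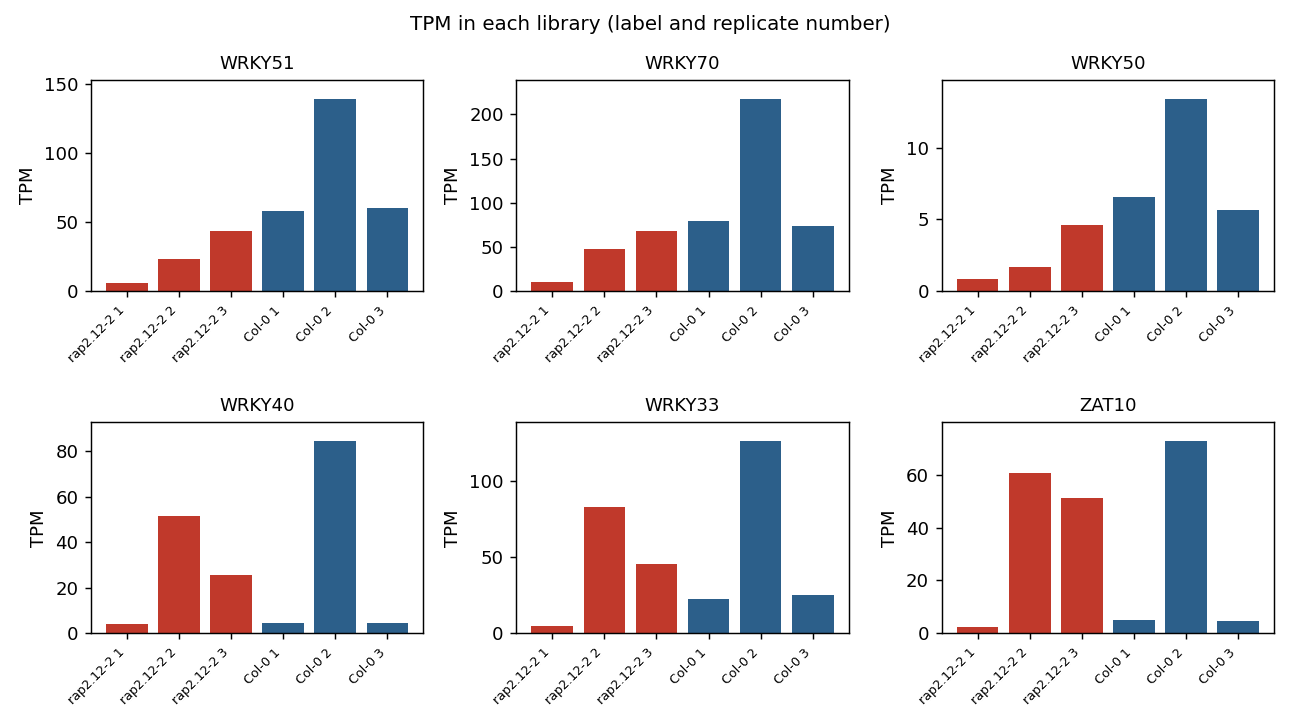
TPM in each of the 6 libraries, those labelled rap2.12-2 in red at the left and Col-0 in blue at the right, for WRKY51, WRKY70 and WRKY50 (top) and for WRKY40, WRKY33 and the rapid stress gene ZAT10 (bottom). In the top row every Col-0 bar exceeds every rap2.12-2 bar; in the bottom row rap2.12-2 replicates 2 and 3 and Col-0 replicate 2 are the 3 high bars, at 51.3 TPM or more for ZAT10.

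Members with other defence roles had log2 fold changes between -0.79 and 0.19, and all had groups that overlapped. WRKY75 (AT5G13080), which acts in phosphate starvation, senescence and salicylic acid production, measured 11.3, 26.2 and 28.3 TPM in libraries labelled rap2.12-2, against 32.4, 75.4 and 18.7 TPM in Col-0. Its log2 fold change of -0.79 (SE 0.49, limma adjusted p = 0.846) was the furthest below 0 in this role. WRKY25 (AT2G30250), a relative of WRKY33 in heat and defence responses, measured 1.53, 3.15 and 5.16 TPM in libraries labelled rap2.12-2, against 3.30, 9.62 and 4.26 TPM in Col-0. Col-0 replicate 2 was the highest library for both.

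WRKY4 (AT1G13960), which with WRKY3 acts against necrotrophic fungi, measured 12.95, 22.2 and 19.5 TPM in libraries labelled rap2.12-2, against 17.7, 27.5 and 22.4 TPM in Col-0. Its log2 fold change was -0.30, and that of WRKY3 was -0.06. The calmodulin-binding group IId factors WRKY7, WRKY11 and WRKY17 restrain basal defence. WRKY17 (AT2G24570) measured 55.0, 56.9 and 50.4 TPM in libraries labelled rap2.12-2, against 42.8, 58.0 and 42.5 TPM in Col-0, with a log2 fold change of 0.19. WRKY7 (AT4G24240) measured 15.8, 19.7 and 24.7 TPM in libraries labelled rap2.12-2, against 21.8, 19.7 and 24.1 TPM in Col-0. WRKY11 (AT4G31550) had means of 50.4 TPM in libraries labelled rap2.12-2 and 51.3 TPM in Col-0, and a log2 fold change of -0.01. The means of these 3 genes differed between genotypes by less than 1 SD of the Col-0 libraries.

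Members outside the defence roles had log2 fold changes between -0.50 and 0.37, all with groups that overlapped. WRKY57 (AT1G69310), a factor of drought tolerance and leaf senescence, measured 39.6, 85.8 and 78.0 TPM in libraries labelled rap2.12-2, against 80.4, 92.7 and 88.3 TPM in Col-0. WRKY39 (AT3G04670), a factor of heat tolerance, measured 51.2, 67.96 and 77.9 TPM in libraries labelled rap2.12-2, against 67.7, 89.4 and 82.0 TPM in Col-0. In both genes the low library was the one labelled rap2.12-2 replicate 1, and the other 2 of that label were at or near the Col-0 range. WRKY47 (AT4G01720) repeated this, with 5.43, 16.3 and 18.5 TPM in libraries labelled rap2.12-2, against 16.8, 18.2 and 17.2 TPM in Col-0, and its log2 fold change of -0.50 was 0.00 without that library. WRKY1 (AT2G04880, named ZAP1 in the reference) measured 21.8, 32.3 and 31.5 TPM in libraries labelled rap2.12-2, against 32.0, 37.4 and 31.9 TPM in Col-0.

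Among the 14 compared members without a defence role, WRKY69 and WRKY65, related group IIe genes, were the 2 with a positive log2 fold change. WRKY69 (AT3G58710) measured 7.94, 9.46 and 7.64 TPM in libraries labelled rap2.12-2, against 5.39, 9.06 and 4.77 TPM in Col-0, with a log2 fold change of 0.37 (SE 0.25, limma adjusted p = 0.855). WRKY65 (AT1G29280) measured 22.7, 19.0 and 16.1 TPM in libraries labelled rap2.12-2, against 12.4, 17.4 and 17.7 TPM in Col-0. Neither passed the test and both overlapped. The rest of this role comprised WRKY2, an activator of zygote polarity, WRKY6 and WRKY45, which act in phosphate supply, WRKY26, a heat-induced relative of WRKY33, and WRKY20 and WRKY21. Their log2 fold changes ran from -0.45 for WRKY6 to -0.09 for WRKY21.

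The subfamilies had log2 fold changes of one sign in several cases. All 6 compared genes of group III were negative, with a median of -1.32, as were all 8 of group I, with a median of -0.28. All 3 compared genes of group IIe (WRKY22, WRKY69 and WRKY65) were positive, with a median of 0.27. Quantile scaling made 1 of the 8 group I genes, WRKY3, positive. Without the library labelled rap2.12-2 replicate 1, 4 of the 8 group I genes were positive, and without both end libraries 7 of the 8 were, as were 3 of the 6 group III genes, WRKY46, WRKY38 and WRKY53. WRKY22 was negative in 4 of the 6 fits that left out 1 library. The 6 compared genes of group III are all salicylic-linked, so subfamily and role cannot be told apart among them. WRKY54 and WRKY55 are neighbours on chromosome 2 with 0 genes between them, and WRKY55 had 0.00, 0.17 and 0.00 TPM in libraries labelled rap2.12-2, against 0.00, 0.48 and 0.24 TPM in Col-0. Genes on the opposite strand overlap 10 members, among them WRKY40, WRKY33, WRKY53 and WRKY69, and without a stated strand setting their reads may be mixed. WRKY40 shares a stretch of 272 coding bases at 95.2% identity with AT3G32090 on chromosome 3, which was listed at 0 in all 6 libraries.

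W-box letters were counted in the promoters of the members, taken as 250 bases before to 50 bases after the annotated gene start in TAIR10.1. TTGACC or TTGACT, on either strand, stood in 3 of 12 promoters of salicylic-linked members, or 25.0%, in 9 of 15 with other defence roles, or 60%, and in 5 of 18 others, or 27.8%. The same letters stood in 32.4% of 27443 promoters of nuclear protein-coding genes. The core TTGAC, which every such W-box contains, stood in 9 of the 12, or 75.0%, in 10 of the 15, or 66.7%, in 10 of the 18, or 55.6%, and in 50.5% of all. The 250 bases before the start are shown for 3 salicylic-linked members: WRKY70 and WRKY51, whose groups were separate and whose promoters hold the core but no full W-box, and WRKY62, whose promoter holds 2 W-boxes and whose groups overlapped. Capitals mark TTGAC or its reverse complement GTCAA.
WRKY70 (chr3:20910624-20910873, minus strand): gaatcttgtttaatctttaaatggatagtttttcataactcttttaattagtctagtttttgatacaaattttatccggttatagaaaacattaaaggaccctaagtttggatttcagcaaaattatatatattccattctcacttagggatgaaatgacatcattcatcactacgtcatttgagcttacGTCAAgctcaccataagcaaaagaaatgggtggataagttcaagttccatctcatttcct
WRKY51 (chr5:25907997-25908246, plus strand): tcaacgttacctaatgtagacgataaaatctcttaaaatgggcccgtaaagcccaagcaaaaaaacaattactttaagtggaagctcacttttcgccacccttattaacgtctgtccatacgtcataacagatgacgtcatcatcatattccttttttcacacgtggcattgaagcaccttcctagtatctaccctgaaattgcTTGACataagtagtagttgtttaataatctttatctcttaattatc
WRKY62 (chr5:352096-352345, minus strand): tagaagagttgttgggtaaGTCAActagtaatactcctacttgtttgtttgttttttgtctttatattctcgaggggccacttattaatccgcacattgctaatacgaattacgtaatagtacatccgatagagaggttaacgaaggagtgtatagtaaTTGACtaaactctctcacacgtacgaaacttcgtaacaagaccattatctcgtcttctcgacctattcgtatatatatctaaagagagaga
The letters are a description of these windows and say nothing about binding.

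Genes known to act with salicylic-linked WRKY factors had values on the same side. Of 14 genes of salicylic acid synthesis, perception and output, all 14 were negative on the log2 scale, where 53.3% of all genes were. Their median was -1.35, against -0.02 over all genes. Among them PR5, at -0.17, had the higher mean in libraries labelled rap2.12-2, 1.21 TPM against 1.03 TPM in Col-0. ALD1, an enzyme of pipecolic acid synthesis, averaged 0.343 TPM in libraries labelled rap2.12-2 and 2.04 TPM in Col-0, and PR1, the classic output of salicylic acid, averaged 0.0700 TPM in libraries labelled rap2.12-2 and 7.64 TPM in Col-0. Both reached the 1 TPM average only through Col-0, so their negative sign was bound to the filter. Without both end libraries 11 of the 13 compared were negative, with a median of -0.61, and ICS1 had a log2 fold change of -0.97. With all 6 libraries 9 had an unadjusted p under 0.05, ALD1 among them, all lower, where 3.62% of all genes were. An adjusted p under 0.05 was found for 0. ICS1 (AT1G74710), the isochorismate synthase of salicylic acid production and a target of WRKY28, measured 7.12, 17.5 and 36.1 TPM in libraries labelled rap2.12-2, against 51.2, 92.6 and 49.8 TPM in Col-0. Its groups were separate, with a log2 fold change of -1.83 (SE 0.49, limma adjusted p = 0.389). PBS3, which acts late in salicylic acid synthesis, had a log2 fold change of -2.04, and the lipase-like immune regulators EDS1 and PAD4 of -1.08 and -1.55. PR1 was low outside Col-0 replicate 2, at 0.00, 0.21 and 0.00 TPM in libraries labelled rap2.12-2, against 3.10, 19.8 and 0.00 TPM in Col-0.

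Genes of camalexin synthesis are targets of WRKY33. CYP71A13 (AT2G30770), an enzyme of camalexin synthesis, measured 0.29, 1.51 and 0.76 TPM in libraries labelled rap2.12-2, against 4.25, 9.58 and 2.64 TPM in Col-0. These groups were separate while those of WRKY33 overlapped, with a log2 fold change of -1.72 (SE 0.43, limma adjusted p = 0.361). CYP71A13 averaged 0.853 TPM in libraries labelled rap2.12-2 and 5.49 TPM in Col-0, so it passed the filter only through Col-0 and its sign was bound to it. PAD3, the last enzyme of the pathway, had a log2 fold change of -0.90 (limma adjusted p = 0.522). Without both end libraries the values were -1.06 for CYP71A13 and -0.55 for PAD3, against 1.33 for WRKY33. Of the 10 listed targets of other members, 5 averaged 1 TPM or more. CYP71A13 and PAD3 were the 2 of these lower at an unadjusted p under 0.05, against 3.62% of all genes. Among the others, PHO1, a phosphate exporter repressed by WRKY6, had a log2 fold change of 0.25, and RRTF1, a rapid redox-responsive factor, had 0.11, 21.7 and 10.9 TPM in libraries labelled rap2.12-2, against 0.00, 34.4 and 0.11 TPM in Col-0.

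Upstream kinases had log2 fold changes between -0.78 and 0.29. Of 8 genes of mitogen-activated protein kinase cascades that phosphorylate WRKY factors, 1 was lower at unadjusted p under 0.05, against 3.62% of all genes. That gene, MKK1 (AT4G26070), measured 4.28, 5.54 and 7.41 TPM in libraries labelled rap2.12-2, against 8.30, 15.99 and 8.30 TPM in Col-0, with a log2 fold change of -0.78 (SE 0.30, limma adjusted p = 0.621), and of -0.33 without both end libraries. MKK5 (AT3G21220), of the cascade arm to MPK3 and MPK6, had separate groups in the other direction, at 26.0, 29.7 and 26.1 TPM in libraries labelled rap2.12-2, against 20.9, 23.3 and 22.03 TPM in Col-0. Of 7 partner proteins, which include VQ-motif proteins that bind WRKY factors, 1 was lower at that level, against the same 3.62% of all genes. SIB2 (AT2G41180), a VQ protein that binds WRKY33, measured 0.99, 3.55 and 9.32 TPM in libraries labelled rap2.12-2, against 12.8, 20.8 and 9.72 TPM in Col-0, with a log2 fold change of -1.70 (SE 0.54, limma adjusted p = 0.481), and of -0.83 without both end libraries. JAV1, IKU1 and SIB1, from the same family of VQ proteins, had log2 fold changes of -0.71, -0.53 and -0.96. Over all 7 partners the log2 fold changes ran from -1.70 to 0.02, with 5 negative and 2 positive.

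Marker levels of other tissues are given beside these values. The 4 xylem markers summed to 240, 252 and 242 TPM in libraries labelled rap2.12-2, against 149, 186 and 185 TPM in Col-0, groups that did not overlap. XCP1 and XCP2, xylem proteases, had log2 fold changes of 0.50 (limma adjusted p = 0.457) and 0.56 (limma adjusted p = 0.389), and they make up most of the sum. VND7, a regulator of vessel formation, and IRX3, a cellulose synthase of secondary walls, had log2 fold changes of -0.09 and 0.37 with groups that overlapped. Of the phloem markers, APL, a regulator of phloem identity, measured 6.15, 7.43 and 7.57 TPM in libraries labelled rap2.12-2, against 4.29, 4.72 and 5.71 TPM in Col-0. Its groups were separate, with a log2 fold change of 0.45 (limma adjusted p = 0.761), while SUC2, a sucrose transporter of companion cells, had -0.01 with groups that overlapped. Of the endodermis markers, GPAT5, an enzyme of suberin synthesis, had a log2 fold change of -0.38, and CASP1 averaged less than 1 TPM. The 2 epidermis markers summed to 7.67, 20.7 and 10.5 TPM in libraries labelled rap2.12-2, against 18.2, 27.2 and 20.4 TPM in Col-0. WOX11 (AT3G03660), a founder-cell factor of callus, measured 73.4, 103 and 130.4 TPM in libraries labelled rap2.12-2, against 193, 171 and 196 TPM in Col-0, with a log2 fold change of -0.90 (SE 0.21, limma adjusted p = 0.315). The order of libraries in the xylem sum was not that of the salicylic-linked WRKY genes, since the library labelled rap2.12-2 replicate 1 was level with the other 2 of its label. In the epidermis sum that library was the lowest and Col-0 replicate 2 the highest, as in the sum of the salicylic-linked genes. In the callus sum that library was also the lowest, with Col-0 replicate 3 the highest. The phloem and endodermis sums had other lowest libraries. The part of cell makeup in the WRKY values was not tested.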

How the data were processed

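Total RNA was extracted with TransZol Up and libraries were built with a TruSeq kit for RNA, per the labels' protocols. The authors deposited 1 table of TPM covering 31305 loci in 6 libraries. STAR 2.7.10a, RSEM 1.3.1 and TAIR10 are named, without roles, per the submitters' processing notes, and the strand setting is not given in the sources used here. Depth is unknown, because TPM keeps none, and the p-values measure only the spread between these libraries. All 6 columns matched a sample title. The 18629 genes averaging 1 TPM or more were compared as log2(TPM + 1), which understates changes of low genes, with limma 3.58.1 (R 4.3.3, mean-variance trend) and Benjamini-Hochberg adjustment over all of them at 0.05. The fit was tested on simulated data with 200 changed genes and noise drawn independently for each gene. It recovered 37% of the 2-fold and 81% of the 4-fold changes, with 7 false calls among 125. Shifts of a whole library shared by many genes were not simulated. Positions, symbols and sequences are from RefSeq's TAIR10.1 annotation, where 43 members have the symbol used here and WRKY1 and WRKY44 are named ZAP1 and TTG2. Copies of at least 100 bases at 95% identity were sought with BLAST 2.17.0.

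The members, roles, gene lists and tests were chosen with earlier results of these data known. Values in every library are given for WRKY70, WRKY38, WRKY51 and WRKY46, for up to 6 more members of each role with the smallest limma p, and for the 2 most abundant of each role. From each other list up to 4 genes with the smallest p are named. PR1, PR5, ALD1, WRKY40, WRKY48, WRKY22 and WRKY55 fall outside this rule. Alternatives were pseudocounts of 0.1 and 0.5, dropping the filter or raising it to 5 TPM, scaling by median of ratios, quantiles or nuclear loci, no variance trend, a replicate block, and libraries left out singly or in pairs.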

Additional observations from a re-analysis of the deposited data

How the results depend on the processing

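Under other pseudocounts, filters, scalings and variance priors 0 WRKY members were called, as in the comparison reported. Rescaling to nuclear loci moved the median of all genes to -0.10 and gave 7 members separated lower instead of 4, and median-of-ratios scaling gave WRKY23 0.010. The share of all genes separated under that rescaling is not given, so the 7 is no result about the members. Fits without 1 library gave 0 called members, 20 to 31 negative ones, 2 to 6 with p under 0.05 unadjusted and lower, 0 to 3 higher, and 4 to 8 separated lower against 0 to 3 separated higher. Those with 2 or 3 such lower members left out Col-0 replicate 2 (2), rap2.12-2 replicate 1 (2) or Col-0 replicate 1 (3), and WRKY50 and WRKY51 were among them each time.

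The fit without both rap2.12-2 replicate 1 and Col-0 replicate 2 had 6 called members, where 6.19% of all genes were called. It had 12 negative members, 3 lower and 7 higher with p under 0.05 unadjusted, and 13 separated higher. The fit without both replicates 1 had 1 lower and 8 separated lower. Groups separate more readily with fewer libraries, also in the fits without 1 library. The shares of all genes separated, or at an unadjusted p under 0.05, in these fits are not given. Neither kind of count is therefore a result about the members. Over these 8 fits, the median log2 fold change ran from -1.53 to 0.067 for salicylic-linked, -0.34 to 0.28 for other defence, -0.36 to 0.11 for other members and -0.72 to 0.23 for both defence roles. The other defence median was 0.08 when Col-0 replicate 2 was left out and 0.14 when rap2.12-2 replicate 1 was.

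In one or more of these fits 23 members changed sign. Of these, 14 ranged from -1.47 to 0.50 (WRKY46), -1.85 to 0.29 (WRKY38), -0.71 to 0.20 (WRKY18), -0.24 to 2.72 (WRKY40), -1.38 to 1.33 (WRKY33), -0.94 to 0.088 (WRKY25), -0.46 to 0.065 (WRKY4), -0.29 to 0.019 (WRKY7), -0.67 to 1.04 (WRKY48), -1.24 to 0.14 (WRKY75), -0.80 to 0.032 (WRKY47), -0.59 to 0.22 (WRKY15), -0.0031 to 0.39 (WRKY65) and -0.17 to 0.17 (WRKY23). The other 9 were WRKY22, negative in 4 of the fits without 1 library, WRKY45, positive without rap2.12-2 replicate 2, and WRKY53, WRKY3, WRKY11, WRKY2, WRKY26, WRKY20 and WRKY6, which were positive (0.16 to 0.47) without both rap2.12-2 replicate 1 and Col-0 replicate 2. The cause was not tested.

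RAP2.12 kept its direction but not its call with no filter, no variance trend or a replicate block (1.48 each), without both replicates 1 (1.45), and in 4 of the fits without 1 library, where its log2 fold change ran from 1.36 to 1.58. The replicate block called 0 members, with 7 lower at p under 0.05 unadjusted, a count given without the share of all genes and so no result about the members. Deviations of same-numbered libraries had correlations of 0.20, 0.35 and -0.11, and those of differently numbered ones ran from -0.34 to 0.23. So few values cannot settle whether the numbers pair the libraries. W-box shares of salicylic-linked promoters were 25.0% for the full letters and 75.0% for the core.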

Other observations

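The reference annotation names 27 further WRKY loci that are not among the 45, of which 17 had a mean of at least 1 TPM. WRKY63, listed there as ABO3 (AT1G66600), measured 4.90, 7.89 and 17.0 TPM in libraries labelled rap2.12-2, against 22.6, 30.3 and 21 TPM in Col-0. Its groups were separate, with a log2 fold change of -1.37 (SE 0.37, limma adjusted p = 0.389). WRKY59 (AT2G21900), a group IIc relative of WRKY50 and WRKY51, measured 0.33, 1.37 and 2.72 TPM in libraries labelled rap2.12-2, against 4.15, 6.90 and 2.22 TPM in Col-0, with a log2 fold change of -1.16 (SE 0.45, limma adjusted p = 0.633). WRKY9 had separate groups the other way, at 4.38, 5.22 and 5.38 TPM in libraries labelled rap2.12-2, against 4, 2.95 and 1.88 TPM in Col-0 (log2 fold change 0.64, limma adjusted p = 0.693). These 3 were the loci of the 17 at an unadjusted p under 0.05, where 3.62% of all genes were lower and 3.22% higher. An adjusted p under 0.05 was found for 0 of the 17. WRKY63, WRKY59 and WRKY9 were chosen after their values were seen.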
